A study of Homo sapiens with 6 samples.

Results

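The translation elongation factors EEF1A1, EEF1A2, EEF1B2, EEF1D, EEF1G, EEF1E1 and EEF2, with the kinase EEF2K, were examined in SU-DHL-2 cells cultured with or without IL-17A. A probe was taken for a gene when its RefSeq accession belonged to that gene, which gave 12 of the 34127 probes on the array and 8 of the 19740 named genes. EEF1A1 had 5 probes, each of the other genes had 1, and each probe was a single spot per array. EEF1A2 was selected on its signal in these same arrays, where its dim probe appeared with IL-17A, so its difference is given below as a description with no test. The other 7 genes were taken as its family and not for their values.

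Translation elongation adds amino acids to the growing peptide on the ribosome. The GTPase eEF1A brings each aminoacyl-tRNA to the ribosome, the eEF1B complex recharges eEF1A with GTP, and the GTPase eEF2 moves the ribosome on by a codon. EEF1A1 is expressed in almost all cells, whereas its close paralogue EEF1A2 is normally expressed in neurons and in heart and skeletal muscle and has been described as overexpressed in several tumours. EEF2K phosphorylates eEF2 and thereby slows elongation, and it is held in check by mTOR signaling and activated by AMPK and calmodulin.

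SU-DHL-2 is an established human DLBCL cell line. The IL-17A group was 3 samples of these cells treated with 200 pg/ml IL-17A for 72 h, and the control group was 3 samples grown for 72 h in the same medium without IL-17A. RNA of each sample was labeled with Cy3 and hybridized to its own 1-colour whole-genome array, so every value below has n = 3 per group. The data hold 1 cell line, 1 dose and 1 time point, and since the labels do not say that the samples came from separate cultures, p-values measure the spread between these samples only, which may be technical.

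Signals were log2 intensities after quantile normalization across the 6 arrays, with intensities below 1 set to 1. Detection on an array required a positive and significant signal well above background. The limma fit used the 23945 probes (70.2%) that met this on 3 or more of the 6 arrays. Each IL-17A array detected 23570 to 23718 probes, and each control array 23729 to 24077. The dimmest intensity flagged as well above background on an array was 3.73 to 4.50, and no spot was saturated. All 10 B-cell markers that were listed (MS4A1 and CD79A among them) were well above background on all 6 arrays. The array of IL-17A replicate 1 was scanned together with all 3 control arrays, whereas replicates 2 and 3 came from a different scan, so scan and treatment overlap in part.

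Many mRNAs of the translation machinery begin with a C followed by an unbroken run of pyrimidines, the 5′ terminal oligopyrimidine (TOP) tract, through which mTOR signaling controls their translation. The annotated starts of 4 of the genes are shown because they differ in this tract. EEF1E1, without it, was chosen because it passed the adjusted threshold below, so the genes shown are no test of the tract. RefSeq (GRCh38.p14) gave start regions for 6 of the 8 genes, with 7 starts; EEF1A2 and EEF1D are named only. Each line holds 30 bases before the start and 20 bases from it, 5′ to 3′ on the gene's strand, and the capitals mark the pyrimidine run at the start.
EEF1A1, chr6:73521013-73521062, minus strand: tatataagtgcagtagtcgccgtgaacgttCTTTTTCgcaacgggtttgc
EEF1B2, chr2:206159865-206159914, plus strand: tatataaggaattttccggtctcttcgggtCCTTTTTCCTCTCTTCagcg
EEF2, chr19:3985444-3985493, minus strand: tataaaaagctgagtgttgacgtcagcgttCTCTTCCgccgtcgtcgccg
EEF1E1, chr6:8102529-8102578, minus strand: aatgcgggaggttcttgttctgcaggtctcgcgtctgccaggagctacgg

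The run was 7 bases long at EEF1A1, 16 at this start of EEF1B2 and 7 at EEF2. EEF1E1, EEF1G, EEF2K and the other annotated start of EEF1B2 had none. EEF1G and EEF2K, which also lacked the tract, did not pass the adjusted threshold (adjusted p = 0.683 and 0.434 by limma). Whether the tract is related to any difference with IL-17A was not tested. Of 35116 annotated starts, 1429 (4.07%) began with C and a run of at least 5 pyrimidines. A match in these letters is a description of the annotated start, and the starts used in SU-DHL-2 cells were not measured.

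EEF1A2, the tissue-restricted form of eEF1A, was dark on the control arrays and dim on the IL-17A arrays. The intensity at its probe A_33_P3229953 (NM_001958) was 11.95, 8.56 and 9.39 on IL-17A arrays 1, 2 and 3. It was 0.972, 0.962 and 0.981 on control arrays 1, 2 and 3. Every IL-17A value lay above every control value, and the probe was well above background on 3 of 3 IL-17A arrays and on 0 of 3 control arrays. On the normalized log2 scale the IL-17A arrays stood at 3.62, 3.11 and 3.27 (mean 3.34 ± 0.26 SD, n = 3), and all 3 controls were at 0 because their intensities had been set to 1. The size of this log2 difference therefore depends on that lower limit and is no measure of the fold change.

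The pixels of the EEF1A2 spot showed the same separation before any correction. The median spot brightness was 30, 26 and 25 on the IL-17A arrays over a local background of 14, 12 and 12. On the control arrays it was 16, 18 and 19 over a background of 15, 14 and 13. The spot thus exceeded its surroundings by 16, 14 and 13 brightness units with IL-17A and by 1, 4 and 6 in the controls, and the groups did not overlap. These are differences of a few units of brightness near the lower end of the scale of the scanner.

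**Figure D1:**
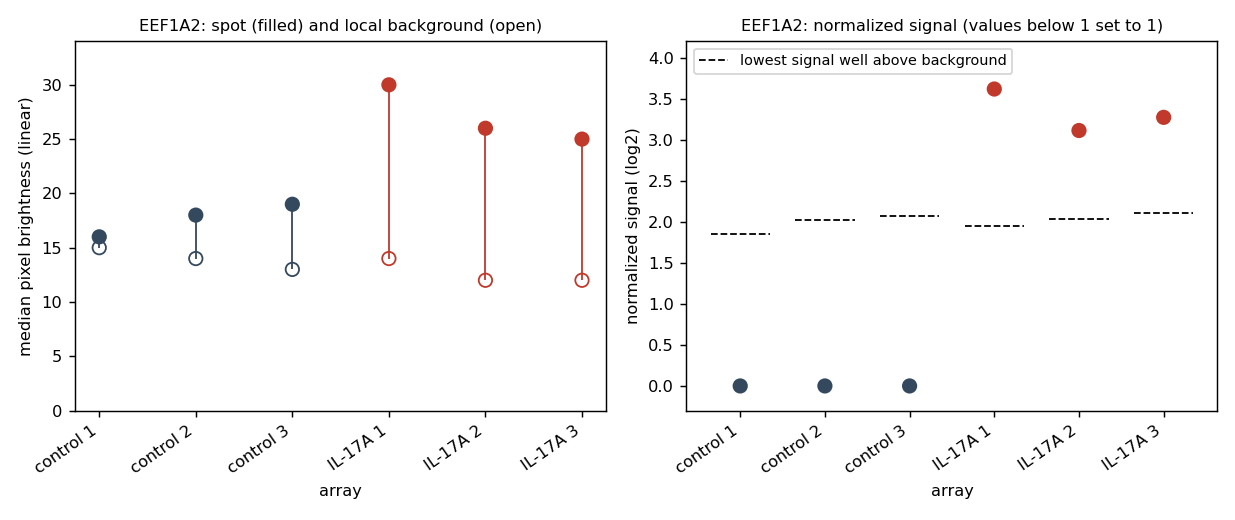
EEF1A2 on each array. Left, median pixel brightness on a linear scale, with filled points for the spot, open points for its local background and a line for the gap between them (13 to 16 units on the IL-17A arrays, 1 to 6 on the controls). Right, the normalized log2 signal, with dashes for the lowest signal well above background on that array (1.86 to 2.11). The 3 IL-17A points lie above their dashes and the 3 control points lie at 0.

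Because the controls had only an upper limit, the fold change of EEF1A2 is a lower bound, computed against the lowest signal well above background on each control array. By the group means of these normalized intensities, the EEF1A2 signal with IL-17A was higher by at least 2.55-fold. That bound, 1.35 on the log2 scale, holds for this treatment of dim signals only. The authors' own table and normexp, given below, gave smaller log2 differences of 1.12 and 0.20. By single IL-17A arrays the EEF1A2 signal was at least 3.10-fold, 2.19-fold and 2.44-fold higher for replicates 1, 2 and 3. IL-17A replicate 1, the array that shared a scan with the 3 controls, thus gave the highest of these bounds. IL-17A has only that array in the scan, and the part of the scan in the difference was not tested. RNA was taken from all cells of a sample together, so a few cells with much EEF1A2 RNA and many cells with a little cannot be told apart.

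The pattern of EEF1A2 was uncommon among all tested probes, but 22251 of these were detected on all 6 arrays and could not show it. Of the 23945 tested probes, 41 (0.171%) exceeded the background clearly with IL-17A on all 3 arrays and without it on none, and they measured 33 named genes. EEF1A2 had the second highest lower bound of these probes, after MAGEA6 at 3.09-fold and before IL2RB at 2.46-fold. The median bound of the 41 probes was 1.62-fold, and 29 of them reached 1.5-fold. The opposite pattern, with all 3 controls and no IL-17A array well above background, was found for 70 probes (0.292%), with bounds of up to 2.04-fold. Since EEF1A2 was selected for its difference, its place among these probes is a description.

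How large the EEF1A2 difference appeared depended on how dim signals were treated, although IL-17A was the higher group under each treatment that gave a value. Since EEF1A2 was selected for its difference in these arrays, that direction is a description. In the log2 values of the authors' own table the IL-17A arrays were at 3.72, 3.23 and 3.39 and the controls at 2.32, 2.33 and 2.33, a difference of 1.12. With normexp background correction and an offset of 50, which compresses dim signals, they were at 6.65, 6.63 and 6.62 against 6.39, 6.44 and 6.46, a difference of 0.20. With each array's dim signals raised to its lowest signal well above background the difference was 1.35, which corresponds to the bound of 2.55-fold.

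EEF1A1, the main eEF1A gene of most cells, was bright at all of its 5 probes, each well above background on all 6 arrays. At the brightest probe, A_24_P763243, the log2 signal was 15.89, 15.73 and 15.84 with IL-17A and 15.89, 15.86 and 15.90 in the controls. The groups overlapped, and the log2 fold change was -0.06 (SE 0.05, limma, adjusted p = 0.442). On the 3 control arrays all of these EEF1A1 probes were well above background and the EEF1A2 probe was not. Whether the EEF1A2 probe also binds EEF1A1 RNA was not tested.

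The other EEF1A1 probes did not share a direction. A_32_P15320 had a log2 fold change of -0.10 (SE 0.11, adjusted p = 0.585 by limma), with IL-17A replicate 1 low at 14.64 beside 14.95 and 15.03, and controls at 15.00, 14.89 and 15.03. Without that array its log2 fold change was 0.02. A_32_P47701 had -0.09 (SE 0.05, adjusted p = 0.252), from 14.95, 14.84 and 14.84 against 14.98, 14.99 and 14.93. Both of these probes were thus slightly lower by the mean, and their groups overlapped.

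The remaining EEF1A1 probes were slightly higher by the mean. A_32_P44316 had a log2 fold change of 0.12 (SE 0.08, adjusted p = 0.347 by limma), from 14.03, 14.01 and 13.77 with IL-17A against 13.81, 13.86 and 13.77. A_33_P3387272 had 0.09 (SE 0.05, adjusted p = 0.255), from 13.61, 13.48 and 13.49 against 13.47, 13.42 and 13.41. Only at the latter of the 5 probes did the groups not overlap, a separation that 39.0% of all tested probes had, 21.0% with IL-17A above. Over the 6 arrays the 5 probes correlated with each other at r = -0.77 to 0.66, with both signs among the pairs. EEF1A1 has many processed pseudogenes, and which probes also bind their transcripts was not tested.

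The EEF1A1 value depended on the scaling. Before normalization, the intensity at A_24_P763243 was 55964, 53598 and 55334 on the IL-17A arrays and 67672, 61308 and 60829.5 on the controls, so that all IL-17A arrays lay below all controls. Without normalization the log2 fold change was -0.20 (unadjusted p = 0.0356 by limma), and with each array scaled to its 75th percentile it was -0.23 (unadjusted p = 0.0032). Among the 2720 probes at least as bright as the dimmest of the other family members, the median log2 fold change was 0.00 after quantile normalization and -0.03 after 75th percentile scaling. From quantile normalization to 75th percentile scaling the log2 fold change of EEF1A1 moved from -0.06 to -0.23, that of EEF1B2 from 0.08 to -0.07 and that of EEF1G from 0.03 to -0.11.

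None of the 3 subunits of the eEF1B complex passed a threshold, and their groups overlapped. EEF1B2, the alpha subunit that exchanges GDP for GTP on eEF1A, was at 14.96, 15.05 and 15.02 with IL-17A and at 14.90, 14.88 and 15.01 without it, which gave a log2 fold change of 0.08 (SE 0.05, adjusted p = 0.341 by limma). EEF1D, the delta subunit with the same activity, was at 12.54, 12.35 and 12.50 against 12.58, 12.52 and 12.53, a log2 fold change of -0.08 (SE 0.06, adjusted p = 0.435). EEF1G, the gamma subunit that holds the complex together, was at 15.24, 15.13 and 15.16 against 15.15, 15.13 and 15.17, a log2 fold change of 0.03 (SE 0.04, adjusted p = 0.683). In each of these genes 1 or more IL-17A arrays lay within the range of the controls. The 95% intervals of the log2 fold changes ran from -0.05 to 0.21 for EEF1B2, from -0.23 to 0.08 for EEF1D and from -0.08 to 0.14 for EEF1G. With 75th percentile scaling both EEF1B2 and EEF1G turned below 0, to -0.07 and to -0.11 (unadjusted p = 0.0267 for EEF1G by limma).

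EEF1E1, also called AIMP3 or p18, resembles the eEF1B subunits in sequence but is a scaffold protein of the multi-tRNA synthetase complex. With quantile normalization it was the tested member that passed the adjusted threshold, and it was lower with IL-17A. With 75th percentile scaling EEF1A1 and EEF1G were lower too, at -0.23 and -0.11 (unadjusted p = 0.0032 and 0.0267 by limma). The log2 signal of EEF1E1 was 10.80, 10.78 and 10.74 with IL-17A (mean 10.77 ± 0.03 SD) and 10.99, 10.97 and 10.96 in the controls (mean 10.98 ± 0.01 SD). The 3 IL-17A arrays were lower than all 3 controls, and the spread within each group was small beside the gap. The log2 fold change was -0.20 (SE 0.04, 95% interval -0.29 to -0.11, unadjusted p = 0.00175, adjusted p = 0.0397 by limma), a fall of 13.1% and less than 1.5-fold.

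The fall of EEF1E1 was small, and it lay inside the 5th to 95th percentile (-0.22 to 0.23) of the log2 fold changes of the 2720 bright probes. An adjusted p under 0.05 was found for 7.59% of all tested probes, and 18.0% had all IL-17A arrays below all controls. The value of EEF1E1 was below 0 under 19 of 19 other settings (-0.22 to -0.17), but these are not separate tests. Settings that change only the filter, lower limit, test, replicate block or probe rule return -0.20 by construction. Slide as a block and the shared scan are the same comparison. The value was -0.19 with 75th percentile scaling, -0.22 with normexp and -0.20 in the authors' table (unadjusted p under 0.05 by limma). Without normalization it was -0.17 (unadjusted p = 0.0824 by limma). With an array left out it was -0.22 to -0.18. Within the shared scan, IL-17A replicate 1 stood 0.17 below the mean of the controls on the log2 scale.

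EEF2, the translocase of elongation, was at 13.47, 13.27 and 13.42 with IL-17A and at 13.37, 13.35 and 13.29 in the controls. The groups overlapped, with a log2 fold change of 0.05 (SE 0.06, 95% interval -0.11 to 0.21, adjusted p = 0.623 by limma). EEF2K, the kinase that inhibits eEF2, was at 11.39, 11.52 and 11.44 against 11.20, 11.32 and 11.51, a log2 fold change of 0.11 (SE 0.09, 95% interval -0.11 to 0.33, adjusted p = 0.434). Control replicate 3 was the control that lay among the IL-17A arrays. Without it the log2 fold change of EEF2K was 0.19 (unadjusted p = 0.0365 by limma), so the EEF2K value rests in part on that array.

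**Figure D2:**
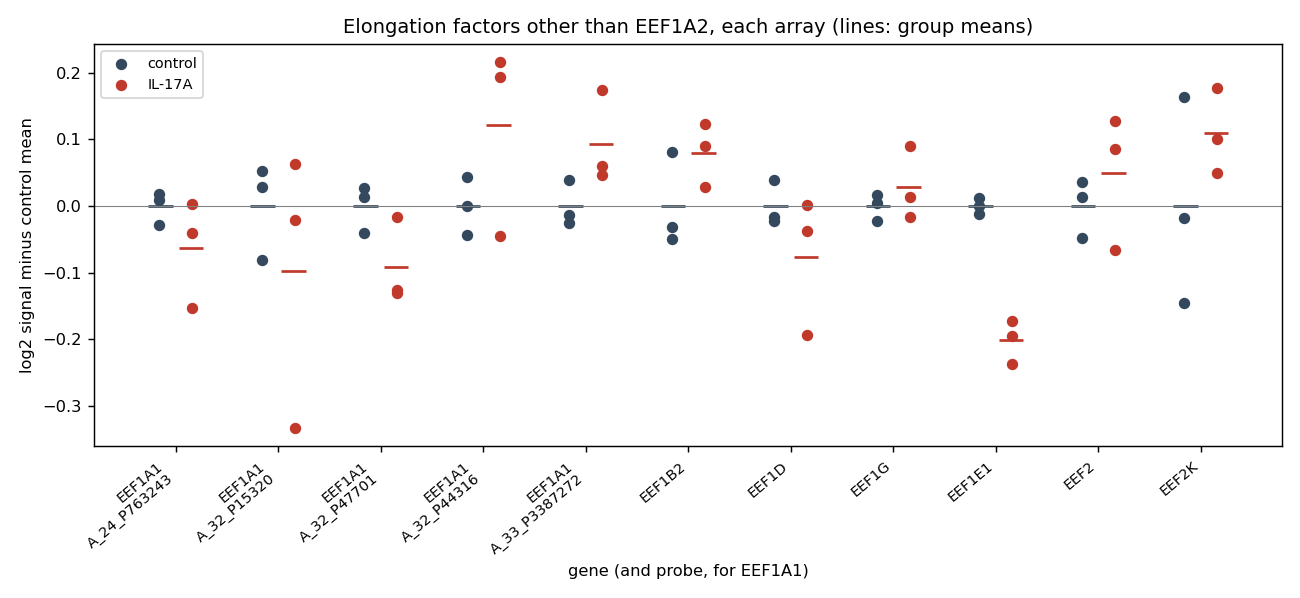
Normalized log2 signal of each array minus the mean of the 3 controls, for the 11 probes of the elongation factors other than EEF1A2, with blue points for controls, red points for IL-17A and short lines for group means. The red and blue points are separate at EEF1E1 and at the EEF1A1 probe A_33_P3387272 and overlap at the other 9 probes. At the EEF1A1 probe A_32_P15320, IL-17A replicate 1 lies 0.33 below the control mean.

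Counted by probe, 0 of the 11 probes of the 7 genes other than EEF1A2 passed a fold change of 1.5 with an unadjusted p under 0.05, against 2.18% of all tested probes, and 1 of the 11 had an unadjusted p under 0.05, against 31.3%. The groups did not overlap at 2 of the 11, against 48.5% of the 2720 probes of like brightness. Counted by gene, 0 of the 7 elongation factor genes passed both thresholds at the brightest probe, a call made for 1.92% of all named genes tested. With the unadjusted p alone 1 of the 7 passed, EEF1E1, against 31.8% of all named genes, and with the adjusted p again 1 of the 7 against 7.85%. The groups did not overlap for 1 of the 7 genes at its brightest probe, against 40.7% of all named genes. Their median log2 fold change was 0.03, beside 0.00 over all named genes, with 3 genes below 0 and 4 above, where 49.1% of all named genes were below 0. Every 95% interval among the 11 probes lay inside a 1.5-fold change in either direction. A change of 1.5-fold was rare among probes of this brightness, since 3 of 2720 (0.110%) passed both thresholds. For a single gene, exact permutation of 3 arrays against 3 allows no p below 0.1.

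**Figure D3:**
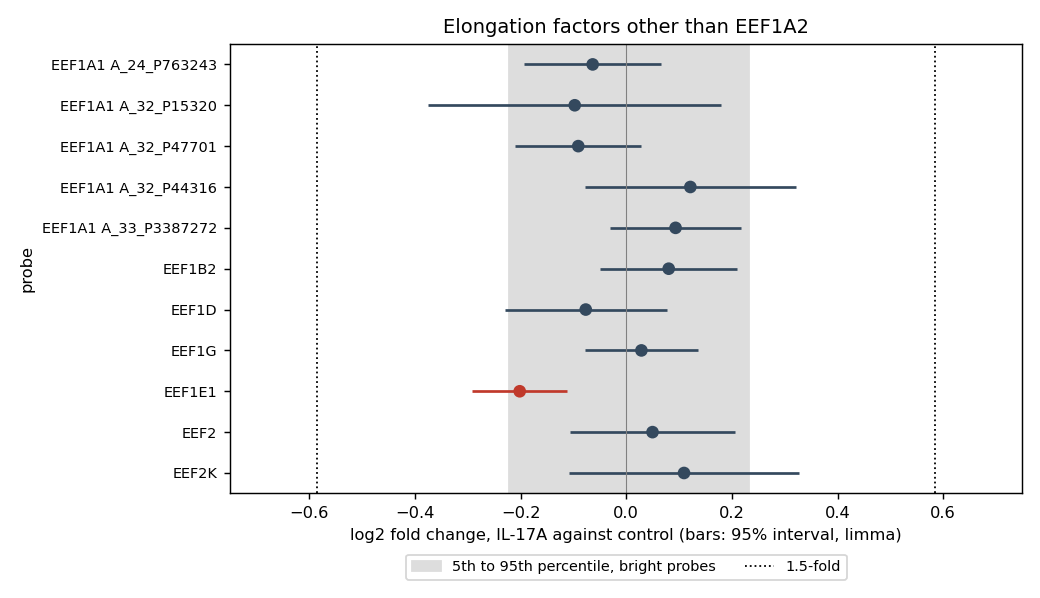
Log2 fold change of IL-17A against control at each probe of the elongation factors other than EEF1A2, with 95% intervals from limma. The grey band holds the 5th to 95th percentile (-0.22 to 0.23) of the 2720 probes at least as bright as the dimmest probe shown, and the dotted lines mark 1.5-fold. EEF1E1, in red, has an adjusted p under 0.05, and all intervals lie between the dotted lines.

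The other genes of translation were followed in lists. Of 20 further factors of cytosolic elongation, recoding, termination and ribosome rescue, 3 rose and 3 fell at an unadjusted p under 0.05, and 0 passed the adjusted threshold, with a median log2 fold change of -0.03. PELO, which recognizes stalled ribosomes, had a log2 fold change of 0.16 (adjusted p = 0.0579 by limma), and GTPBP2, a GTPase that works with it, had -0.22 (adjusted p = 0.0807). EIF5AL1 had -0.29 (adjusted p = 0.0538), but it is nearly identical to EIF5A, so its probe may bind both transcripts.

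Among 12 enzymes that modify eEF1A or eEF2, 3 rose and 4 fell at an unadjusted p under 0.05, and 2 fell with an adjusted p under 0.05. DPH2, needed to start the synthesis of diphthamide on eEF2, fell by 0.30 on the log2 scale (SE 0.05, adjusted p = 0.0343 by limma). EEF1AKMT4, a lysine methyltransferase of eEF1A, fell by 0.24 (SE 0.04, adjusted p = 0.0349). DPH7, which acts late in diphthamide synthesis, had a log2 fold change of 0.13 (adjusted p = 0.0734). The median of the list was 0.00 on rounding, so the enzymes did not share a direction.

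EEF1E1 was also set beside the rest of the multi-tRNA synthetase complex and VARS1, the valyl-tRNA synthetase that binds eEF1B. Of these 11 genes 4 rose and 2 fell at an unadjusted p under 0.05, and their median log2 fold change was 0.08. The scaffold proteins AIMP1 and AIMP2 had log2 fold changes of 0.15 (adjusted p = 0.0541 by limma) and -0.15 (adjusted p = 0.077). Members of the complex thus moved both ways, and whether EEF1E1 differs from them was not tested.

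Of 15 kinases and inputs that act on EEF2K, 1 rose and 2 fell at an unadjusted p under 0.05. MLST8, a subunit of the mTOR complexes, fell by 0.27 on the log2 scale (SE 0.05, adjusted p = 0.0377 by limma). RPS6KB2, an S6 kinase downstream of mTOR, had a log2 fold change of -0.23 (adjusted p = 0.0501), and PRKAA1, a catalytic subunit of AMPK, had 0.22 (adjusted p = 0.157). The PRKAA1 value was 0.10 within the shared scan, where IL-17A has 1 array. The list's median was -0.04.

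The 5 elongation factors of mitochondria, which serve a separate ribosome, moved in both directions. GFM1, the mitochondrial translocase, fell by 0.26 on the log2 scale (SE 0.04, adjusted p = 0.0362 by limma). TUFM, the mitochondrial counterpart of eEF1A, had a log2 fold change of -0.25 (adjusted p = 0.068), and GFM2, which recycles mitochondrial ribosomes, had 0.26 (adjusted p = 0.0598). For comparison, 39 cytosolic initiation factors had a median of -0.01, with 8 genes that rose and 5 that fell at an unadjusted p under 0.05. EIF1, which guides start codon selection, rose by 0.39 (SE 0.05, adjusted p = 0.0313), and EIF3H, a subunit of eIF3, rose by 0.32 (SE 0.05, adjusted p = 0.036). EIF2B2, a subunit of the exchange factor of eIF2, had -0.17 (adjusted p = 0.0623).

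None of the genes in these 6 further lists passed a 1.5-fold change together with an unadjusted p under 0.05. That call was made for only 1.92% of all named genes. Among all named genes, 16.9% rose and 14.8% fell at an unadjusted p under 0.05. With the adjusted p, 7 of the 102 list genes passed, against 7.85% of all named genes.

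**Figure D4:**
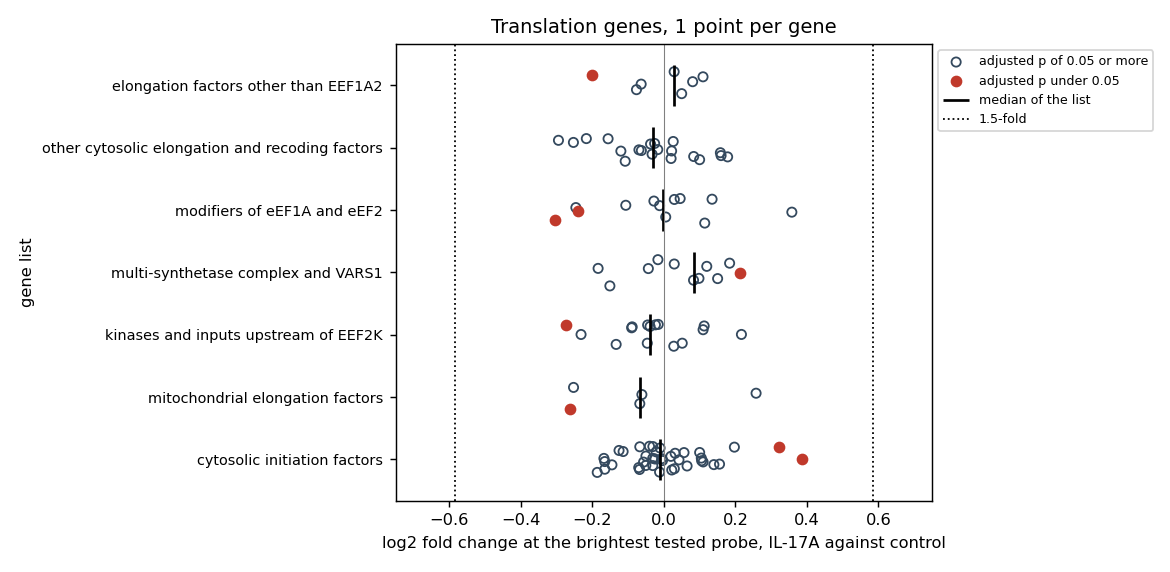
Log2 fold change of IL-17A against control at the brightest tested probe of each gene, 1 point per gene, for the elongation factors other than EEF1A2 and 6 further lists of translation genes. Filled red points have an adjusted p under 0.05 (EEF1E1, DPH2, EEF1AKMT4, MLST8, GFM1, EIF1 and EIF3H among them), black bars mark list medians, and no point lies beyond the dotted lines at 1.5-fold.

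Of the genes nearest to EEF1A2 in RefSeq order, COL20A1 (a collagen), PPDPF and the kinases PTK6 and SRMS were tested, and none of these passed a threshold. The log2 fold changes were -0.04 for COL20A1, -0.04 for PPDPF, -0.14 for PTK6 and 0.00 for SRMS, with adjusted p-values of 0.577 to 0.999 by limma. CHRNA4, a nicotinic receptor subunit nearby, was well above background on 0 IL-17A and 2 control arrays and was not tested. COL20A1 and SRMS changed sign under some other settings.

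The named genes whose normalized signals followed EEF1A2 most closely over the 6 arrays were RASSF4, DBH, DNAJB9, CLK1 and SLAMF6, with Pearson correlations of 0.997 to 0.999. Their log2 fold changes with IL-17A were 0.52, 0.39, 0.22, 0.36 and 0.26. The 3 control values of EEF1A2 were identical, so these correlations rest on the step between the groups and on the 3 IL-17A arrays. The genes closest to EEF1A1 at its brightest probe were FKBP4, BEND3 and FGF16, with correlations of 0.987, 0.985 and 0.982, and FGF16 was well above background on only 1 IL-17A and 2 control arrays. These are descriptions over 6 arrays that share groups and scans.

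Since EEF1A2 is normally a gene of neurons and striated muscle, genes of both tissues were examined. Of 10 neuron genes, 4 were detected on 3 or more of the 6 arrays and tested. RBFOX3 and SYT1 were dim and entered the test through the IL-17A arrays, since each was well above background on 3 IL-17A arrays and 1 control array. Because they met the filter through the group where they were high, their fold changes, p-values and calls are a description. RBFOX3, a neuronal splicing factor, had a log2 fold change of 1.17 (adjusted p = 0.0525 by limma). SYT1, a synaptic vesicle protein, had 0.85 (adjusted p = 0.155) with groups that overlapped. Both passed 1.5-fold with an unadjusted p under 0.05 by limma, which made 2 of the 4 tested, against 1.92% of all named genes. The neuron genes ELAVL4, MAP2, NEFL, NEFM and STMN2 were well above background on no array, and SYN1 on 1 IL-17A and 1 control array. SNAP25 and the brighter TUBB3 were well above background on all 6 arrays, and both were lower with IL-17A by the mean. SNAP25 had a log2 fold change of -0.23 (adjusted p = 0.185 by limma) with groups that overlapped. TUBB3 had -0.22 (adjusted p = 0.0763 by limma). The summed signal of the 10 neuron genes was 2140 to 2419 with IL-17A and 2552 to 2725 in the controls, and it was mostly that of TUBB3, at a mean log2 signal of 11.10 and 11.32. Their part in the EEF1A2 difference was not tested.

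Of the 10 striated muscle genes, 5 were well above background on all arrays and 0 of these passed both thresholds, against 1.92% of all named genes. ACTC1, CKM, MB, MYH2 and MYH7 were well above background on no array. The summed signal of the list was 556 to 590 with IL-17A and 498 to 532 in the controls, and it was mostly that of TTN, at a mean log2 signal of 8.89 and 8.70. DES, ACTA1 and TNNT2 had log2 fold changes of -0.21, -0.07 and -0.21, whereas TTN had 0.19 (adjusted p = 0.0687 by limma) and TNNT1 had 0.20. Of 9 monocyte markers measured, CD14, FCN1 and VCAN were well above background on all 6 arrays, and MARCO on 2 IL-17A and 3 control arrays. CD68 was well above background on 0 IL-17A and 2 control arrays, and CD163, CSF1R, S100A8 and S100A9 on no array. The 9 monocyte markers summed to 113 to 118 with IL-17A and 128 to 140 in the controls. Of 10 T and NK cell markers, CD3D, CD3E, CD3G, CD2, CD8A, NKG7 and NCR1 were well above background on all 6 arrays. CD5, KLRD1 and TRAT1 were well above background on no array. Of the 7 tested, 1 passed both thresholds (NCR1, with a log2 fold change of -0.67 and an adjusted p of 0.145 by limma). At an unadjusted p under 0.05 by limma, 1 rose and 3 fell. CD3E had a log2 fold change of -0.46 and passed the adjusted threshold (adjusted p = 0.0401 by limma), as did 7.85% of all named genes. CD2 had 0.51 and CD8A had -0.51 (adjusted p = 0.0539 and 0.068 by limma). The 10 T and NK cell markers summed to 219 to 253 with IL-17A and 247 to 257 in the controls. The 10 B-cell markers summed to 71712 to 73200 with IL-17A and 65601 to 69838 in the controls, and 0 of the 10 passed both thresholds. The part of these markers in the EEF1A2 and EEF1E1 differences was not tested.

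Over the settings tried, the EEF1A2 difference stayed above 0 and the EEF1E1 difference below 0. All settings reuse the same arrays, several leave the log2 difference unchanged by construction, and EEF1A2 was selected for its difference. These signs are therefore a description. The EEF1A2 difference was 0.20 to 3.62 on the log2 scale, and the highest value came from IL-17A replicate 1 against the controls of its own scan. Leaving out any array in turn gave 3.19 to 3.45 for EEF1A2 and -0.22 to -0.18 for EEF1E1. For EEF1A2 this range reflects only the IL-17A arrays, since all its controls lay at the lower limit.

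**Figure D5:**
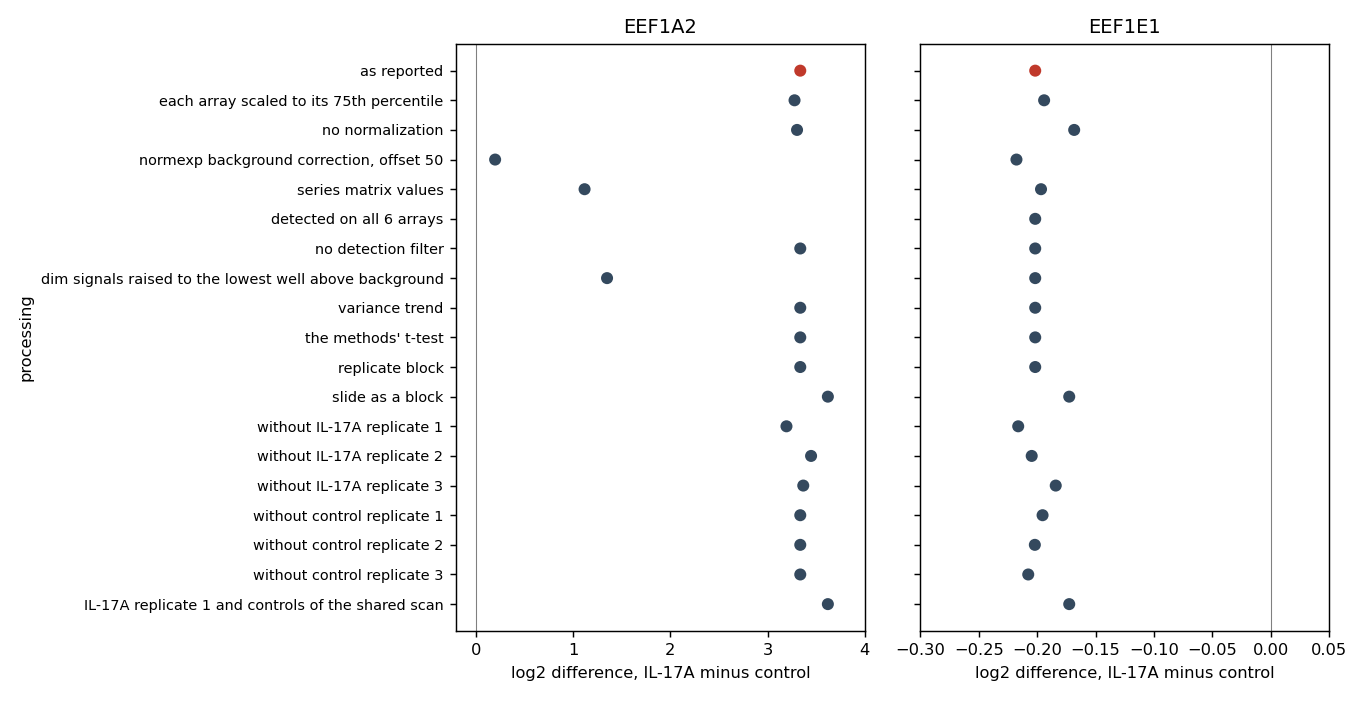
Log2 difference of IL-17A minus control for EEF1A2 (left) and EEF1E1 (right) under each setting, with the reported value in red. EEF1A2 ranges from 0.20 with normexp background correction to 3.62 within the shared scan and has no value where detection on all 6 arrays is required. EEF1E1 ranges from -0.22 to -0.17. EEF1A2 was selected for its difference, so its values are a description.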

How the data were processed

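RNA of 6 samples of SU-DHL-2 cells was measured on 1-colour Whole Human Genome 4 x 44K arrays. Per the labels, the authors extracted the scans with Agilent Feature Extraction 11.0.1.1. Each deposited file gives background-subtracted linear intensities of the spots, not normalized across arrays, with the median brightness of spot and background and flags of 0 or 1. A further deposited table of log2 values, which the authors quantile normalized in GeneSpring and which holds dim probes at a shared lower value, served as an alternative.

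Control spots and 61 non-uniform spot values were left out of 43118 spots, intensities below 1 were set to 1, repeated spots were averaged as log2 values per probe, and arrays were quantile normalized. The groups were compared in R 4.3.3 with limma 3.58.1, with a two-sided test and no covariates. A call needed 1.5-fold or more together with an unadjusted p under 0.05, and p was adjusted by Benjamini-Hochberg over all tested probes. The tested probe with the highest mean stood for a gene. Groups came from the sample titles. The procedure was tested on simulated data. The number of arrays limits the precision, and array signals carry no read depth. Gene names are those of GRCh38.p14, whereas the array annotation uses hg19, so no probe coordinates are given.

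The genes and lists were chosen with earlier results of these data known. Named were all 8 genes at every probe, up to 3 genes per list with the lowest p and every list gene past both thresholds, the 3 nearest protein-coding genes on either side of EEF1A2, and the genes most correlated with EEF1A2 (5) and EEF1A1 (3); MAGEA6 and IL2RB were named after their values were seen, and some genes under this rule are not reported here. Alternatives were other scalings, normexp, the authors' table, other detection filters, a higher lower limit, a variance trend, the methods' t-test, replicate and slide blocks (slides inferred from shared scans), other probe and call rules, and each array left out. Replicate numbers did not pair the samples. Sequences of probes and proteins were not used here.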

Additional observations from a re-analysis of the deposited data

How the results depend on the processing

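EEF1A2 kept IL-17A as the higher group under every alternative that gave a value, and its log2 difference of 3.34 became 0.20 with normexp, 1.12 in the authors' table, 1.35 with dim signals raised, and 3.62 both with slide as a block and within the shared scan. Requiring detection on all 6 arrays removed it. Leaving out each array gave 3.19 to 3.45, a range set by the IL-17A arrays alone because all controls lay at the lower limit. The median of the other 7 genes, 0.03, became -0.077 with 75th percentile scaling and -0.051 without normalization, and -0.0021 to 0.051 with an array left out. Of the 8 genes 1 was called, EEF1A2, which the choice of the gene fixes. The count was 0 with normexp and 0 with detection on all 6 arrays, 2 with the adjusted p (EEF1A2 and EEF1E1), and 1 with any array left out. Since EEF1A2 was selected on these values, its direction and its place in these counts are no test. Among the other 7 genes 0 were called, and 1 passed the adjusted p, against 1.92% and 7.85% of all named genes. Over all probes 522 were called, against 15 with normexp, 299 with detection on all 6 arrays, 978 without that filter, 1818 with the adjusted p, 802 within the shared scan, and 409 to 658 with an array left out. In the further translation lists 0 genes were called, and 7 with the adjusted p, beside 1.92% and 7.85% of all named genes. The shared scan was added as an alternative after the data had been seen.

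Of 205 other values for the elongation factors besides EEF1A2, 182 kept their direction and side of the threshold, 11 passed it anew, 1 no longer passed (EEF1E1 without normalization) and 11 changed sign. With 75th percentile scaling 3 of the 7 genes, EEF1A1, EEF1G and EEF1E1, had an unadjusted p under 0.05 by limma, all lower. EEF1B2 turned to -0.074 with that scaling and -0.049 without normalization. EEF1G turned to -0.11 and -0.083 there, and ranged from -0.0021 to 0.051 with an array left out, the lowest without IL-17A replicate 1. EEF2 turned to -0.0063 with 75th percentile scaling. EEF1A1 and EEF1D were at 0.0030 and 0.0015 both with slide as a block and within the shared scan. The EEF1A1 probe A_32_P15320 ranged from -0.18 to 0.020 with an array left out, the latter without IL-17A replicate 1. Among the neighbours, SRMS turned to -0.096 with 75th percentile scaling and -0.070 without normalization, and ranged from -0.24 (without control replicate 3) to 0.12. COL20A1 turned to 0.017 with normexp and ranged from -0.18 to 0.070 (without IL-17A replicate 1). The cause of these changes was not tested. Changing only the filter, lower limit, test or replicate block leaves these log2 fold changes as they are, so no sign could change there.

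Same-numbered samples correlated at -0.09, -0.00 and -0.05 in their deviations from the group means, so the numbers were not taken as pairs. With a replicate block 527 probes were called, EEF1E1 kept an unadjusted p under 0.05 by limma, and GTPBP2 lost it. The other elongation factors, the translation genes named from the lists and the named neighbours kept their side of that threshold under the block.

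The EEF1A2 signal stood only a few brightness units over background, so its fold change has no upper bound. Its lower bound holds only for the reported treatment of dim signals. The values of the brightest probes, EEF1A1 and EEF1G among them, moved with the scaling. Scan and treatment overlap in part.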
